A study of Mus musculus with 6 samples.

Results

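White and brown adipocyte genes were examined in the aortic root of klotho-deficient and wild-type mice. The list held 32 genes, 18 of white fat and lipid storage and 14 of thermogenic fat, each taken by its symbol. A gene counted as measured when the platform annotation gave at least 1 probe set to it alone, and its brightest probe set by mean log2 signal over 6 arrays stood for it. This left 28 genes of the 18193 tested, 15 white and 13 thermogenic. Plin1, Cfd and Adrb3 had no probe set assigned to them in the annotation used, the probe set of Cpt1b was shared with other genes, and these 4 were not analysed here.

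The dissected roots comprised valve leaflets, annulus and a stretch of ascending aortic wall, from C57BL/6J albino mice aged 6.0 to 6.5 weeks. One group was homozygous mutant for klotho and the other homozygous wild type, and the labels do not name the mutant allele. Each group had 3 arrays, each array carried RNA pooled from 3 animals, and so each genotype was represented by 9 mice. The pools are the replicates, and p-values measure the spread between pools.

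White adipocytes store triglyceride in 1 large droplet coated with perilipin and CIDE proteins, release fatty acids through lipases, and secrete adipokines such as adiponectin, leptin and resistin. Brown and beige adipocytes burn fatty acids in mitochondria uncoupled by UCP1, under the control of PRDM16, PGC-1alpha and thyroid hormone that is activated locally by type 2 deiodinase. In mice the fat around the thoracic aorta resembles brown fat, and a root dissected by hand can carry some of it. Several genes of the list also work outside fat: Fabp3, Cox7a1, Cox8b and Ppargc1a in heart muscle, Cd36, Fabp4 and Lpl in endothelium, macrophages or muscle, and Car3 in muscle. Klotho is the co-receptor of the phosphate-regulating hormone FGF23.

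The arrays had medians of 425.6 to 556.6 at a common trimmed mean, and 69% to 75.4% of probe sets lay above background on each array. Background was taken as the highest signal of 27 Bacillus control probe sets, 161.8. The brighter probe set of the targeted gene Kl gave 138.3, 217.4 and 189.1 on klotho-deficient and 166.7, 184.7 and 202.1 on wild-type arrays, near background, and the other did not exceed 110.3. Neither checks the genotype labels, since signals were this dim and the mutated stretch is not named in the labels. Wild-type replicate 3 had a 3' to 5' Gapdh signal ratio of 7.18 against 3.23 to 4.08 on the other arrays. The 3 measured Y-linked transcripts were all above background on 4 arrays and all below it on klotho-deficient replicates 2 and 3, Kdm5d for example being 2516.3, 16.1 and 5.8 in klotho-deficient roots and 2745.5, 3267.9 and 2512.1 in wild type. Eif2s3y did not exceed 104.4 on those 2 arrays and Uty did not exceed 14, so Y-linked transcripts were not balanced between the genotypes. Any difference between genotypes is thus partly mixed with one between pools with and without Y-linked transcripts.

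The question was whether adipocyte transcripts in the root differed between the genotypes. None of the 28 genes passed in limma with Benjamini-Hochberg adjustment over all genes at a threshold of 0.05, the lowest adjusted p being 0.748 for Cox8b. Of all 18193 genes 0 passed (0%) in limma, and 1166 (6.41%) had an unadjusted p under 0.05, as did 2 of the 28, Thrsp and Cox8b. Against wild type, 17 of the 28 were lower and 11 higher, without a test of the list. The genotypes did not overlap in 2 of the 28, Dio2 and Thrsp, both lower, against 13.5% of all genes in either direction, 6.63% higher and 6.84% lower. The share of the 28 genes lies near that background and is not a result about them. In bulk tissue, a difference in the number of adipocytes cannot be told apart from a difference in RNA per adipocyte.

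**Figure D1:**
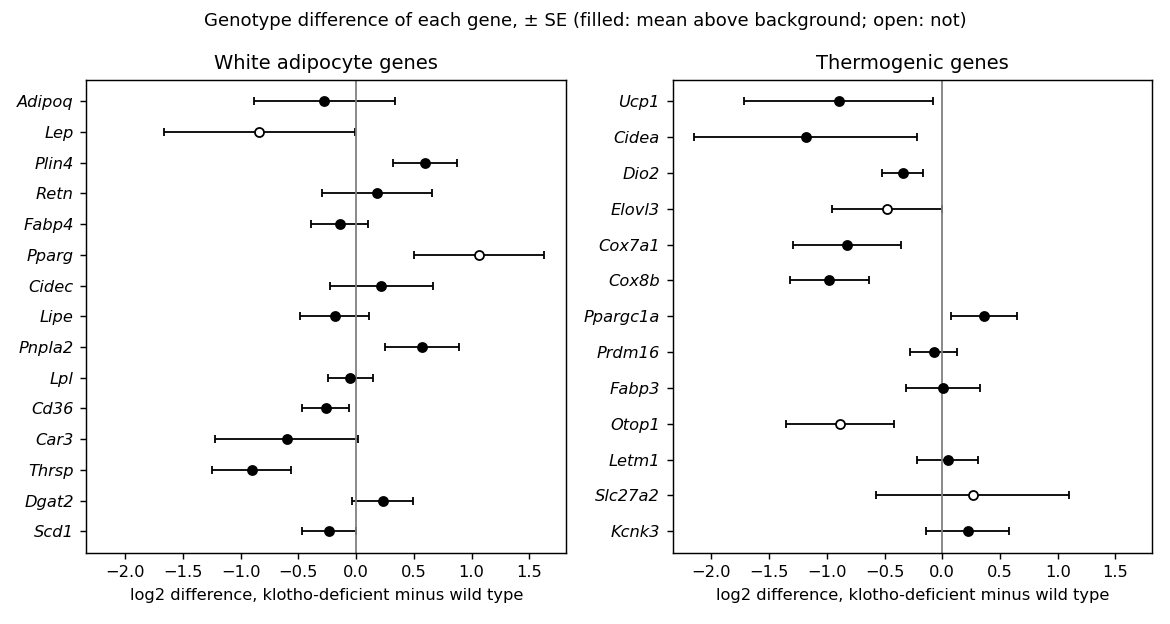
Difference of each gene between genotypes on the log2 scale, klotho-deficient minus wild type, with the standard error from limma (3 arrays per genotype); filled points have a mean above the highest Bacillus control and open points do not. Cox8b at -0.98 and Thrsp at -0.91 lie farthest from 0 relative to their errors, and no gene passed after adjustment.

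Defining adipocyte markers were present in the roots. Adipoq and Cidec were above background on all 6 arrays, and so was Lipe at a dim level. Of brown fat markers, Dio2 and Cox8b were above background on all 6 arrays, Cidea on 5, Ucp1 on 4 and Elovl3 on 1. Among wild-type arrays Dio2 was brightest on replicate 1 and Ucp1 on replicate 2, and both were dimmest on replicate 3. Among klotho-deficient arrays both were brightest on replicate 2. Which cells gave the Dio2, Cox8b and Prdm16 signals was not tested. In all, 21 of the 28 genes were above background on every array, 5 on some arrays (Lep, Pparg, Ucp1, Cidea and Elovl3), and Otop1 and Slc27a2 on none. Pparg, the master regulator of adipocyte formation, was among the dim genes.

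Among the adipokines, Adipoq, which encodes adiponectin, measured 3502.6, 2242.3 and 915.5 on klotho-deficient replicates 1, 2 and 3 and 3829.8, 2592.5 and 1292 on the corresponding wild-type arrays. Replicate 3 was the lowest array and replicate 1 the highest in both genotypes, and the genotypes overlapped almost completely. The difference was -0.28 ± 0.61 (SE, n = 3 per genotype; 95% interval -1.77 to 1.21; limma adjusted p = 0.946). Its sign turned without klotho-deficient replicate 3 (0.26), without wild-type replicate 1 (0.08) and with a covariate for the arrays without Y-linked transcripts (0.58). That covariate leaves klotho-deficient replicate 1 alone to set any gene's genotype difference. Lep, the satiety hormone leptin, was near background, at 258.5, 182.4 and 37.4 in klotho-deficient and 442.5, 164.8 and 139.1 in wild-type roots. Its highest array was again replicate 1 of each genotype, and 2 of the 6 values lay below background. Retn, resistin, measured 1414.2, 1475.1 and 489.5 against 1151.7, 823.8 and 737.7, with klotho-deficient replicate 3 below every other array.

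Car3, a carbonic anhydrase abundant in fat and slow muscle, had the same low arrays. Its signals were 20487.3, 15808.6 and 4603.9 in klotho-deficient and 23443.5, 20079.4 and 11040.9 in wild-type roots. The difference of -0.60 ± 0.62 (limma adjusted p = 0.886) became 0.06 without klotho-deficient replicate 3. It was -0.27 without replicate 3 of both genotypes, the lowest array of each, so its size depended on those arrays. Cidec, a droplet protein that lets lipid droplets fuse and grow, measured 861.4, 608.1 and 356.1 against 735.9, 515.3 and 312.6, a difference of 0.22 ± 0.45. Adipoq, Lep, Cidec and Car3 thus shared their highest array, replicate 1, and their lowest, replicate 3, in each genotype.

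**Figure D2:**
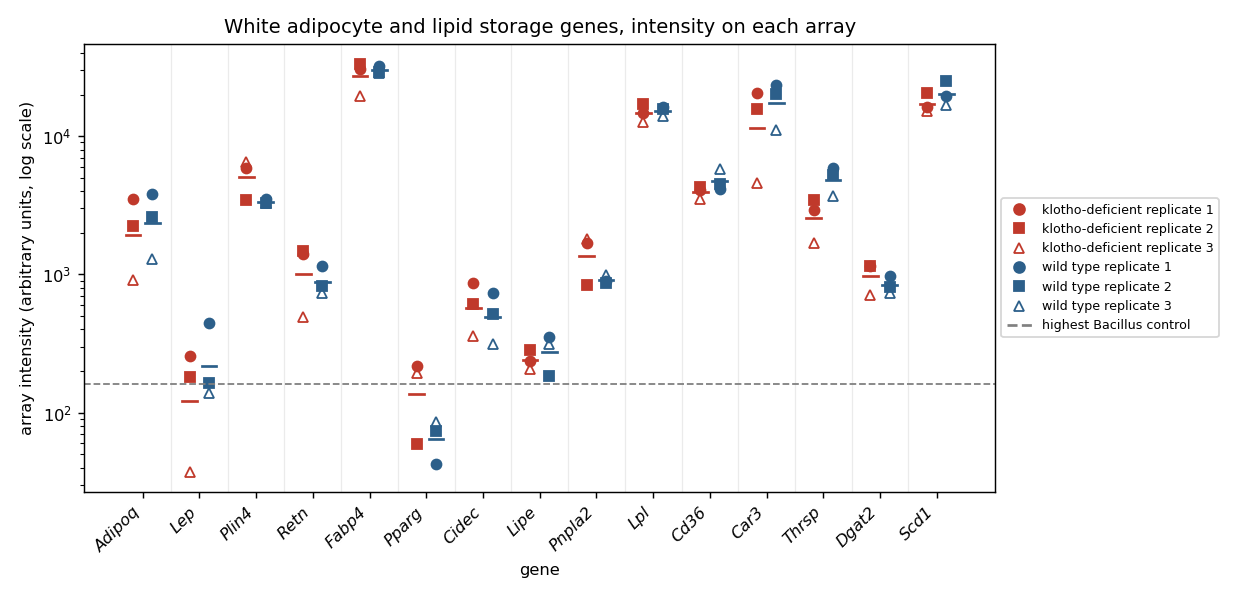
Array intensity (log scale, arbitrary units) of the 15 white adipocyte and lipid storage genes on each of 6 arrays; bars are geometric means of 3 arrays and the dashed line is the highest Bacillus control, 161.8. Open triangles (replicate 3) are the lowest point of both genotypes for Adipoq, Lep, Cidec and Car3, while Plin4 and Pnpla2 are lowest on replicate 2 in klotho-deficient roots.

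Some storage genes spread widely within each genotype and others little. Adipoq varied 3.83-fold among klotho-deficient and 2.96-fold among wild-type arrays, and Car3 4.45-fold and 2.12-fold, whereas Lpl varied 1.35-fold and 1.16-fold and Plin4 1.88-fold and 1.08-fold. Of the 13 white genes above background on all arrays, 11 were lowest on replicate 3 among klotho-deficient arrays, 10 were lowest on replicate 3 among wild-type arrays, and 9 on both. Replicate 3 also had the lowest array median of each genotype, 425.6 and 451.9. The share of all genes lowest on it was not counted, so the order is not read as particular to white genes. The median standard deviation within a genotype was 0.39 on the log2 scale for those 13 genes, 0.40 for the 8 thermogenic genes above background on all arrays and 0.28 for all 13322 genes with a mean above background. The white genes' mean per array, relative to each gene's mean, was 0.35, 0.06 and -0.48 in klotho-deficient and 0.25, 0.00 and -0.19 in wild-type roots, so the genotypes overlapped.

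Plin4 and Pnpla2 differed from the genes above in that replicate 2 was their lowest klotho-deficient array. Plin4, a perilipin of nascent droplets that is also present in muscle, measured 5856.6, 3424.9 and 6455.1 in klotho-deficient and 3521.3, 3271.9 and 3264.5 in wild-type roots. Klotho-deficient replicates 1 and 3 lay above all wild-type arrays and replicate 2 among them, and the difference was 0.59 ± 0.28 (95% interval -0.08 to 1.27; limma adjusted p = 0.778). Pnpla2, the adipose triglyceride lipase that starts lipolysis, measured 1677.3, 844 and 1788.1 against 896.1, 868.4 and 992.5, so that klotho-deficient replicates 1 and 3 lay above all wild-type arrays and replicate 2 below them. Its difference was 0.57 ± 0.32 by this probe set and 0.08 ± 0.29 by the other, so the size is not shared by the gene's probe sets, and the first became 0.37 without klotho-deficient replicate 3. Lipe, the hormone-sensitive lipase, measured 234.5, 282.7 and 207.1 against 352.4, 183.3 and 313.2 (-0.19 ± 0.30), overlapping throughout.

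Genes of fatty acid uptake and transport were bright on all arrays. Lpl, which releases fatty acids from lipoproteins at the vessel wall, measured 14720.2, 17160.1 and 12698.6 against 16126.2, 15843.5 and 13911.8, a difference of -0.05 ± 0.19 with a 95% interval of -0.52 to 0.42. Cd36, a fatty acid receptor, measured 4095.1, 4306.1 and 3505.2 against 4136.5, 4489.3 and 5772.4, and its 3 probe sets gave nearly the same difference, -0.27 to -0.29. It was -0.12 without wild-type replicate 3, the highest array. Fabp4, the fatty acid chaperone of adipocytes, macrophages and capillary endothelium, measured 30581.9, 33074.1 and 19669.1 against 32161.3, 29156 and 28502.8. Only klotho-deficient replicate 3 stood away from the other 5 arrays in Fabp4, and its difference was -0.14 ± 0.25.

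Lipid synthesis genes included Thrsp, a nuclear protein that promotes lipogenesis, with 2919.1, 3465.7 and 1686.3 in klotho-deficient and 5870.4, 5202.5 and 3675.7 in wild-type roots. All klotho-deficient arrays lay below all wild-type arrays, and the difference was -0.91 ± 0.34 (95% interval -1.73 to -0.08; limma adjusted p = 0.763). The other probe sets of Thrsp gave -0.21 ± 0.36 and 0.26 ± 0.27, so they did not share it, and the difference became -0.60 without klotho-deficient replicate 3 and -0.29 as a mean over probe sets. Scd1, the desaturase that makes monounsaturated fatty acids, measured 16200, 20637.9 and 15229.3 against 19576.5, 25102.9 and 16856.3 (-0.23 ± 0.23), both its probe sets were lower, and the difference became -0.08 without wild-type replicate 2. Dgat2, which completes triglyceride synthesis, measured 1152.5, 1146 and 706.7 against 971.9, 808 and 738.1 (0.23 ± 0.26), and its dimmer probe set had the opposite sign, -0.19. Leaving out klotho-deficient replicate 1 or 2 brought the Dgat2 difference to 0.11, and leaving out replicate 3 of that genotype to 0.46. Pparg measured 216.9, 59.3 and 192.4 in klotho-deficient roots and 42.3, 74.1 and 86 in wild-type roots, where all arrays were below background. No fold is given for Pparg, since the mean of the klotho-deficient log2 values also lay below background.

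Over the 15 white genes, 9 were lower and 6 higher in klotho-deficient roots, with a median difference of -0.14 beside 0.00 for all genes. With the covariate for arrays without Y-linked transcripts, which leaves klotho-deficient replicate 1 alone to set the difference, the median was 0.26. It turned to 0.09 when klotho-deficient replicate 3 was left out. With 1 other array left out, it was 0.00 (wild-type replicate 1), -0.08 (wild-type replicate 2) and -0.29 (klotho-deficient replicate 2). The number of lower genes, 9, became 4 without klotho-deficient replicate 3.

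The thermogenic genes had a median of -0.34, with 8 of 13 lower and 5 higher. Their mean per array was -0.06, -0.26 and -0.22 in klotho-deficient and 0.13, 0.34 and 0.08 in wild-type roots, which did not overlap. There was no overlap with each of the 13 left out in turn either, but the set includes genes with means below background. Over the 10 thermogenic genes with a mean above background the ranges were -0.25 to -0.14 and -0.02 to 0.55, but they overlapped when Cidea, Cox7a1 or Cox8b was left out. Without Cidea, which had a single low array, klotho-deficient replicate 2 was at 0.04, above wild-type replicates 1 and 3 at -0.06 and -0.03. The list median became -0.21 with Cidea, Ucp1, Elovl3, Cox7a1, Cox8b or Otop1 left out in turn, and -0.28 without Dio2. Without Ppargc1a, Prdm16, Fabp3, Letm1, Slc27a2 or Kcnk3 in turn it was -0.41. It was smaller in size when dim genes were left out (-0.21), with a pseudocount of 100 (-0.21) and with the covariate for Y-linked transcripts (-0.20). Leaving out klotho-deficient replicate 2 gave -0.14, and leaving out replicate 1 gave -0.22. Cox8b, Cox7a1, Cidea, Ucp1, Otop1, Elovl3, Dio2 and Prdm16 were the 8 lower genes, and 2 of them, Otop1 and Elovl3, had means below background.

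Ucp1, the uncoupling protein that defines brown fat, measured 191.7, 362 and 82.6 in klotho-deficient and 277.1, 915.2 and 146.4 in wild-type roots. Wild-type replicate 2 was the brightest array, and replicate 2 was also the brightest within klotho-deficient roots. The difference of -0.90 ± 0.82 (95% interval -2.89 to 1.09; limma adjusted p = 0.869) became -0.17 with wild-type replicate 2 left out, and -0.34 with klotho-deficient replicate 3 left out. Cidea, a droplet protein of brown adipocytes, measured 271.1, 28.4 and 333.7 against 354.5, 404 and 211. The low mean in klotho-deficient roots rested on replicate 2, and without it the difference of -1.19 became -0.05. Elovl3, a fatty acid elongase induced in active brown fat, measured 50.5, 178.1 and 96.6 against 103.6, 159.5 and 143.1, above background on 1 array, klotho-deficient replicate 2.

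Dio2, the type 2 deiodinase that converts thyroxine to active thyroid hormone, was bright on every array. It measured 8794, 9588.4 and 9013.9 in klotho-deficient and 13304.5, 10813.1 and 10777 in wild-type roots, so that all klotho-deficient arrays lay below all wild-type arrays. The difference was -0.34 ± 0.18, a 1.27-fold lower mean (95% interval -0.77 to 0.09; limma adjusted p = 0.799). Its other probe sets were lower as well, by -0.50 ± 0.23 without overlap and by -0.31 ± 0.23 with overlap. Leaving out 1 array at a time gave -0.39 to -0.24. Dio2 was thus the 1 gene of the list without overlap in which all probe sets had the same sign.

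**Figure D3:**
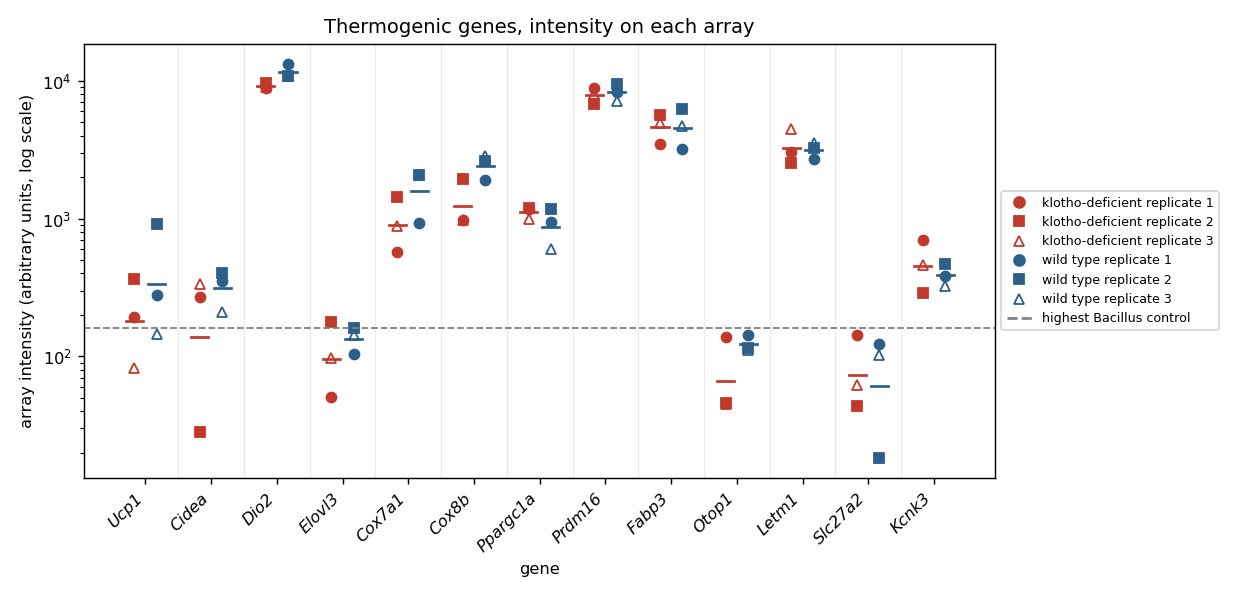
Array intensity (log scale, arbitrary units) of the 13 thermogenic genes on each of 6 arrays; bars are geometric means of 3 arrays and the dashed line is the highest Bacillus control, 161.8. Dio2 is lower on all klotho-deficient arrays within a narrow range, whereas Ucp1, Cidea, Elovl3, Otop1 and Slc27a2 scatter around or below the dashed line.

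Upstream sequences are shown for the 2 genes without overlap between genotypes, Dio2 and Thrsp, and for the defining genes of brown and white fat, Ucp1 and Adipoq. They are the 250 bases before the annotated transcript start from RefSeq (GRCm38.p6), printed in the direction of transcription, at chr12:90739039-90739288 on the minus strand for Dio2, chr7:97417551-97417800 on the minus strand for Thrsp, chr8:83290098-83290347 on the plus strand for Ucp1 and chr16:23146286-23146535 on the plus strand for Adipoq. Capitals mark matches on either strand to the 5 motifs searched, namely AGGTCA (the core of nuclear receptor elements), its direct repeat with a 1-base spacer (DR1, the PPAR element), CCAAT (the CCAAT box), TGACGTCA (the cyclic AMP response element) and TATAAA (the TATA box).
Dio2: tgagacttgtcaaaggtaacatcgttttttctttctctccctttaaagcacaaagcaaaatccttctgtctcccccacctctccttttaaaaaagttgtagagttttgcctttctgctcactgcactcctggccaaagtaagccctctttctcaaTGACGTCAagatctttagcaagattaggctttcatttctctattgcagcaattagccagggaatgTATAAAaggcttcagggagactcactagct
Thrsp: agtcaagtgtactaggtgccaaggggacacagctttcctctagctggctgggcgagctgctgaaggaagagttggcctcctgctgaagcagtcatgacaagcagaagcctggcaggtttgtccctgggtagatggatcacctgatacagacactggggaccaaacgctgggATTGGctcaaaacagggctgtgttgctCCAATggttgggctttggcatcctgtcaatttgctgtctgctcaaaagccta
Ucp1: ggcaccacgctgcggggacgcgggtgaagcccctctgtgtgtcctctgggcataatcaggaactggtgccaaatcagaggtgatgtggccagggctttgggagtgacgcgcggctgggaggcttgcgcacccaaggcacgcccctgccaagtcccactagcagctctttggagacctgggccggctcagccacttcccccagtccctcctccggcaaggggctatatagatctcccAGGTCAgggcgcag
Adipoq: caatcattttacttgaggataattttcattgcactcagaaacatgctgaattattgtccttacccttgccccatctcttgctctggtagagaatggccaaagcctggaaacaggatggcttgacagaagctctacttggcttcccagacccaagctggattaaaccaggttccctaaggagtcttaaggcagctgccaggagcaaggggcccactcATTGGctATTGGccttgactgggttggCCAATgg

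Of the 28 measured genes, 20 had an entry, with 24 windows in all. The DR1 element was in 0 of these 24 windows and in 0.0335% of all 32851 windows. Its core AGGTCA was in 5 of the 24 (Cd36, Pparg, Slc27a2 and Ucp1) and in 14.0% of all, and any DR1 match would hold the core as well. The element TGACGTCA was in the Dio2 window alone, starting 95 bases before the transcript start, and in 1.55% of all windows. TATAAA was in the windows of Dio2 and Pparg (2 of 24, against 12.4% of all), and CCAAT in 9 of 24, against 33.8%. These are matches of letters and not sites, and no 2 of them overlap in the printed windows.

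Of the mitochondrial respiratory genes, Cox8b, a cytochrome c oxidase subunit of brown fat and striated muscle, measured 977.9, 1936.2 and 969.6 in klotho-deficient and 1895, 2617.1 and 2841 in wild-type roots. Klotho-deficient replicate 2 overlapped wild-type replicate 1, the other 2 klotho-deficient arrays being lower than all wild-type arrays. The difference was -0.98 ± 0.34, a 1.97-fold lower mean (95% interval -1.81 to -0.15; limma adjusted p = 0.748). Cox7a1, its partner isoform in the same tissues, measured 567.6, 1422.7 and 882.4 against 925.2, 2083.7 and 2066.9 (-0.83 ± 0.47). Its difference became -0.50 without klotho-deficient replicate 1 and -1.48 with the covariate for Y-linked transcripts.

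Fabp3, the heart-type fatty acid binding protein, measured 3487.6, 5623.1 and 4918.9 against 3209.1, 6274.5 and 4714.4, a difference of 0.01 ± 0.32. Its other probe set, above background on all arrays, was higher without overlap (0.41 ± 0.20), and the mean over both gave 0.21. Replicate 1 was the lowest array of both genotypes in Fabp3 and Cox7a1. The mean of 12 cardiomyocyte markers was also lowest on replicate 1, at -0.45 (klotho-deficient) and -0.64 (wild type) against 0.11 to 0.52 on the other 4 arrays. Myh6, a cardiac myosin, was 9795.7, 19486.7 and 9207.2 in klotho-deficient and 8286.3, 16202.5 and 15169.4 in wild-type roots. The part of heart muscle in the differences of Cox8b and Cox7a1 was not tested. Over the genotypes the cardiomyocyte markers were 6 higher and 6 lower, with a median of 0.00.

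Of the thermogenic regulators, Ppargc1a, which encodes the mitochondrial coactivator PGC-1alpha, measured 1172.7, 1195.2 and 996.5 in klotho-deficient and 946.4, 1166.7 and 596.3 in wild-type roots. Its difference was 0.36 ± 0.29, all 5 of its probe sets were higher (0.03 to 0.52), and it became 0.09 without wild-type replicate 3, its lowest array. Prdm16, the zinc finger protein that directs brown fat fate, measured 8865.1, 6784.8 and 7959 against 8354.6, 9415.8 and 7077.1, a difference of -0.07 ± 0.20. Both regulators were above background on all 6 arrays, whereas Ucp1 was not.

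The remaining thermogenic genes were transporters and channels. Kcnk3, a background potassium channel of brown fat and vessels, measured 695.4, 286.7 and 460.9 against 384.6, 468.3 and 321.9 (0.22 ± 0.36), and a probe set of nearly the same brightness was higher without overlap, at 0.56 ± 0.23. Letm1, a cation exchanger of the mitochondrial inner membrane, measured 3045.3, 2543.9 and 4442.4 against 2721.6, 3232.7 and 3544.5 (0.05 ± 0.26). A dimmer Letm1 probe set gave 314.1, 305.6 and 228.1 against 127.5, 54.8 and 147.2, all wild-type values being below background, so the gene's probe sets disagreed. Otop1, a proton channel, and Slc27a2, an acyl-CoA synthetase, did not exceed 143.7 on any array.

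**Figure D4:**
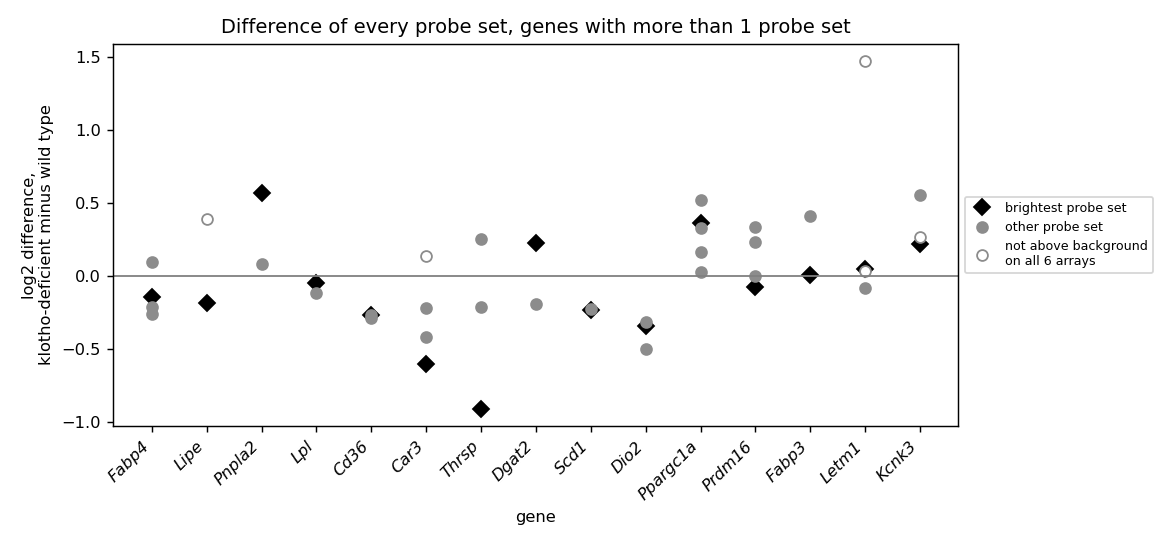
Difference between genotypes (log2, klotho-deficient minus wild type) of every probe set of the 15 genes with more than 1; diamonds mark the brightest probe set and open circles those not above background on all 6 arrays. The probe sets of Dio2, Cd36, Scd1 and Lpl lie together below 0, those of Ppargc1a above it, and those of Thrsp from -0.91 to 0.26.

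Of 15 genes with more than 1 probe set, 8 had all differences of the same sign (Pnpla2, Lpl, Cd36, Scd1, Dio2, Ppargc1a, Fabp3 and Kcnk3) and 7 had mixed signs (Fabp4, Lipe, Car3, Thrsp, Dgat2, Prdm16 and Letm1).

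Other genes of the same pathways gave no calls. Of 26 further lipid storage and lipolysis genes 0 passed in limma, and 1 had an unadjusted p under 0.05, beside 6.41% of all genes. Of these 26, 11 were higher and 15 lower, and the median was -0.04. The smallest p was that of Lpin1, a phosphatidate phosphatase and coregulator, at 1086.5, 949 and 1459.1 against 671.7, 736.1 and 805.7 (0.64 ± 0.22, adjusted p = 0.748), followed by Dgat1, the other acyltransferase of triglyceride synthesis, at 1278 ± 155 against 1710 ± 104 (SD, n = 3). Both were picked by their p and were without overlap. Of the 26 genes, 2 higher and 3 lower were without overlap, these included, beside 13.5% of all genes. Of 26 further thermogenic and fatty acid oxidation genes 0 passed in limma (1 had an unadjusted p under 0.05), with 13 higher and 13 lower and a median of -0.01. Cited1, a beige fat marker, had the smallest p but did not exceed 16.2 on any array, and Esrrg, a nuclear receptor of oxidative tissue, measured 696.8 ± 310 against 1049 ± 87.3.

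Markers of other cells in the dissected tissue were read on the same arrays. Of 9 measured adipocyte progenitor markers 6 were lower, with a median of -0.17. Their mean per array was -0.17 to -0.09 in klotho-deficient and 0.10 to 0.16 in wild-type roots, without overlap and without a test of the list. Within it Pi16, a marker of adventitial fibroblast progenitors, measured 3622, 5086.9 and 4458 against 7561.2, 6931 and 7662.4 (-0.76 ± 0.20, limma adjusted p = 0.67), and Cd55, a complement regulator on the same cells, 6126 ± 1010 against 8783 ± 737. Pdgfra, a receptor of fibroblasts and progenitors, measured 6283 ± 974 against 6112 ± 827.

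Mesothelial markers, from the surface layer of epicardium and pericardium, were lowest on klotho-deficient replicate 3 (-0.87) and highest on wild-type replicate 3 (0.84), while Adipoq was the lowest of its genotype on both. All 7 were lower in klotho-deficient roots (median -0.69), Lrrn4 and Krt19 having the smallest p at 2159 ± 765 against 3516 ± 396 and 1943 ± 643 against 3462 ± 1110. Endothelial markers were highest on wild-type replicate 3 (0.79, against -0.33 to -0.05 on the other arrays), with 9 of 10 lower in klotho-deficient roots and a median of -0.34. Tek and Icam2 led them, at 5924 ± 365 against 9235 ± 1730 and 1059 ± 80.9 against 1957 ± 826, and Pecam1 measured 5236 ± 410 against 5120 ± 1640. The parts of these cell types in the adipocyte genes' differences were not tested.

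**Figure D5:**
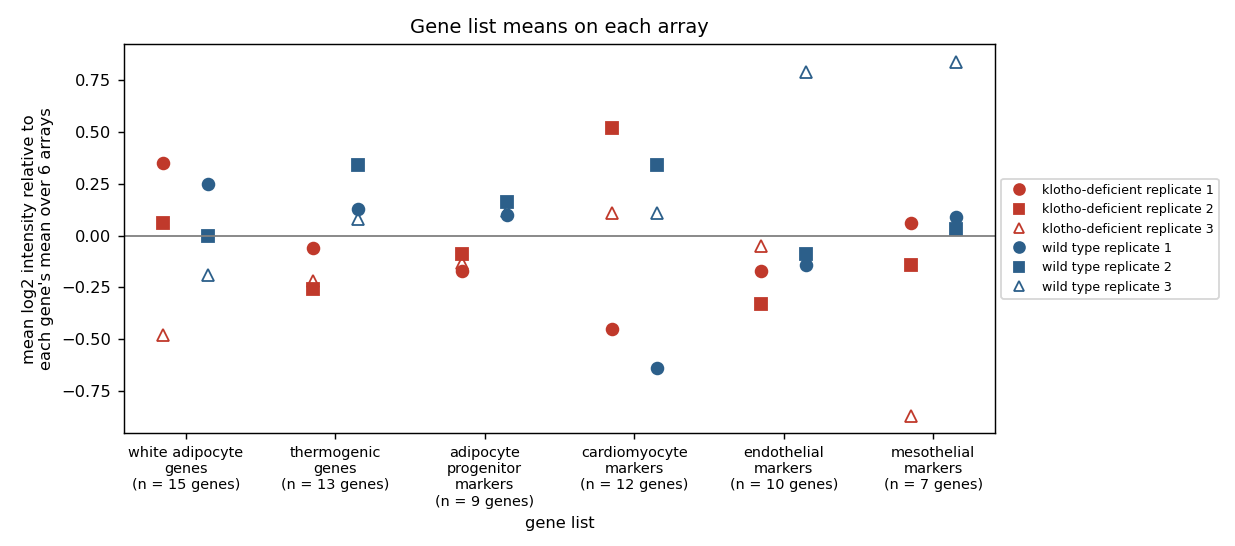
Mean log2 intensity of 6 gene lists on each array, relative to each gene's mean over the 6 arrays. White adipocyte genes overlap between genotypes (-0.48 to 0.35 against -0.19 to 0.25), and thermogenic genes do not (-0.26 to -0.06 against 0.08 to 0.34). The thermogenic set includes genes with means below background. Over the 10 above it, the genotypes overlap without Cidea, Cox7a1 or Cox8b, and no list was tested. Cardiomyocyte markers are lowest on both replicate 1 arrays, and wild-type replicate 3 is highest for endothelial and mesothelial markers.

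The remaining lists were macrophages, smooth muscle and skeletal muscle. Macrophage markers had 6 of 10 higher and a median of 0.09, with Adgre1 at 849.3 ± 160 against 1103 ± 172 and Cd163 at 8699 ± 1240 against 7078 ± 565. Contractile smooth muscle markers had 5 of 8 higher and a median of 0.05, with Myocd at 7514 ± 1380 against 9974 ± 480 and Synpo2 at 17410 ± 3690 against 13270 ± 2490. Skeletal muscle markers had 7 of 8 higher and a median of 0.35, 5 of the 8 having a mean above background. Tnnt3, a fast troponin, led them at 480 ± 121 against 255 ± 70, and Myh4, a fast myosin, did not exceed 110.1. None of the genes of the cell type lists passed in limma. Unadjusted limma p-values under 0.05 were found for 2 of 9 progenitor, 2 of 10 endothelial, 2 of 8 skeletal muscle and 1 of 12 cardiomyocyte markers. They were found for 0 of 7 mesothelial, 0 of 10 macrophage and 0 of 8 smooth muscle markers. The share over all genes was 6.41%, and no list was tested against it. Tcap, a sarcomeric cap protein, had the smallest p of the cardiomyocyte markers at 2908 ± 1020 against 991.4 ± 324, ahead of Myl7 at 2257 ± 752 against 3426 ± 1330, with Tnnt2 at 42140 ± 6250 against 40120 ± 4990.

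Outside the list, the genes above background whose pattern over the 6 arrays was most like that of Adipoq were Pex5l, Creb1 and Akap17b, and those most like Ucp1 were Fv1, Tigd3 and Rnf31, ranked by Pearson's correlation of log2 signals. Pex5l measured 411, 257.5 and 128.7 in klotho-deficient and 522.2, 313.5 and 153.6 in wild-type roots, lowest on replicate 3 of each genotype as Adipoq was. Tigd3 measured 1500, 2027.5 and 1046.1 against 2066.1, 3109 and 1264.4, highest on replicate 2 of each genotype as Ucp1 was. They were picked as the closest among the genes above background, and the likeness is a description of these arrays.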

How the data were processed

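Affymetrix mouse arrays measured total RNA that had been amplified and biotin-labelled with NuGEN kits, per the labels. The deposited values are linear intensities of 45101 probe sets, with a mean of 1500 on every array after trimming 2% at each end. RMA is named in the submitters' processing notes; how linear values arose from it was not stated in them. Signals were taken to log2 as deposited, and since they are not floored, differences of dim genes are unstable.

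The 3 klotho-deficient and 3 wild-type arrays were set against each other with limma 3.58.1 (R 4.3.3; eBayes, two-sided, Benjamini-Hochberg over 18193 genes, threshold 0.05), tested on simulated data. Differences (klotho-deficient minus wild type, log2) are given ± SE, and signals as mean ± SD; other probe sets of a gene were fitted in limma over all probe sets, controls left out. A signal, or a mean of log2 signals, under 161.8 was called below background, and no fold was given for a gene below it on all arrays of a genotype. All list members were named; of other lists, the 2 genes of smallest p and some fixed markers. Genes, lists and tests were chosen with earlier results of these data known, and the motifs CCAAT, TGACGTCA and TATAAA after values were seen. Alternatives were median centring, quantile normalization, a replicate block, a pseudocount of 100, a filter on dim genes, a trended robust prior, means over probe sets, a covariate for Y-linked transcripts and each array left out; leaving out replicate 3 of both genotypes was added after seeing the data. The number of arrays limits the precision.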

Additional observations from a re-analysis of the deposited data

How the results depend on the processing

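Genes of the adipocyte list past the threshold numbered 0 under all alternatives run, with a lowest adjusted p of 0.425. Over all genes the count of 0 became 1 with a pseudocount of 100 or with dim genes left out (1 higher, Dbp, in each), 2 with the trended robust prior (2 higher, Dbp and Sphk2), and 0 to 1 with arrays left out (0 higher throughout, 0 to 1 lower, the 1 being Y-linked Eif2s3y without klotho-deficient replicate 1). The white genes' median of -0.14 became 0.26 with the Y-linked covariate and ran from -0.29 to 0.09 with arrays left out. The thermogenic median of -0.34 became -0.21 without Cidea, an alternative chosen after seeing the data. Leaving out Ucp1, Elovl3, Cox7a1, Cox8b or Otop1 in turn gave the same -0.21, and leaving out Prdm16 or a higher gene gave -0.41. The median was -0.21 with a pseudocount of 100, -0.21 without dim genes and -0.20 with the Y-linked covariate. With arrays left out it ran from -0.39 to -0.14. With the Y-linked covariate the signs turned for Adipoq (0.58), Lep (0.26), Fabp4 (0.03), Car3 (0.24), Prdm16 (0.11), Fabp3 (-0.39), Otop1 (0.18) and Letm1 (-0.05). With means over probe sets they turned for Lipe (0.10) and Prdm16 (0.12), and with quantile normalization for Fabp3 (0.00). Without replicate 3 of both genotypes, an alternative chosen after seeing the data, they turned for Fabp4 (0.05), Lipe (0.02), Fabp3 (-0.02) and Letm1 (-0.09). With arrays left out, including replicate 3 of both genotypes, signs turned within these ranges: Adipoq from -0.71 to 0.26, Lep from -1.39 to 0.00, Retn from -0.09 to 0.70, Fabp4 from -0.29 to 0.09, Cidec from -0.11 to 0.56, Lipe from -0.47 to 0.02, Lpl from -0.16 to 0.06, Car3 from -1.02 to 0.06, Prdm16 from -0.19 to 0.03, Fabp3 from -0.25 to 0.24, Letm1 from -0.18 to 0.22, Slc27a2 from -0.61 to 0.76 and Kcnk3 from -0.09 to 0.55. Without a change of sign, with arrays left out the ranges were Pnpla2 from 0.37 to 0.92, Cd36 from -0.36 to -0.04, Thrsp from -1.12 to -0.60, Dgat2 from 0.11 to 0.46, Scd1 from -0.37 to -0.08 and Cox7a1 from -1.22 to -0.50. Elovl3 (-0.93 to -0.02), Otop1 (-1.42 to -0.61) and Pparg (0.73 to 1.66) also kept their sign with arrays left out. They were below background on all wild-type arrays, so no fold is read from these ranges. The replicate block gave 0 genes past the threshold and the same medians, -0.14 and -0.34. Deviations of same-numbered arrays correlated at 0.17, -0.01 and 0.16 across genes, and those of differently numbered arrays at -0.20 to 0.07. These values do not settle whether the numbers pair the pools, and the labels do not say. The cause of these shifts was not tested. The covariate leaves klotho-deficient replicate 1 alone to set the genotype difference, and dim probe sets limit Lep, Pparg, Ucp1, Cidea, Elovl3, Otop1 and Slc27a2.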

Other observations

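Further metabolic genes of the pathway lists, chosen after their values were seen, spread widely between arrays of a genotype. Pck1, the enzyme of glycerol synthesis in fat, measured 1213.6, 559 and 339.6 on klotho-deficient replicates 1, 2 and 3 and 1379.3, 1225.1 and 533.9 on the wild-type arrays, lowest on replicate 3 of each genotype as Adipoq was. Pdk4, a kinase that spares glucose during fasting, measured 7832.4, 8044.2 and 10623.8 against 3834.4, 5169.5 and 9893.1, highest on those same arrays. Cebpd, an early adipogenic and acute phase factor, was 4953.1 and 7081.3 on the replicate 3 arrays and 1918.7 to 4014.1 on the others. Slc2a4, the insulin-responsive glucose transporter of fat and muscle, measured 814.7, 668.7 and 886.1 against 538.5, 564.9 and 160.2, without overlap, as for 13.5% of all genes (1.10 ± 0.52, limma adjusted p = 0.777). Its lowest array was wild-type replicate 3, below background, and without it the difference was 0.51. That array had the high Gapdh ratio of 7.18, but its Actb ratio of 1.10 was like those of the other arrays.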
